A study of Mus musculus with 34 samples.

Results

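The chemokine ligand genes described here are Cxcl1, Cxcl5, Ppbp, Ccl2, Ccl7, Ccl9, Cxcl10, Ccl5, Cx3cl1 and Cxcl12, 10 genes picked by name as CC, CXC and CX3C ligands made by MOSJ-Dkk-1 osteosarcoma cells. Of the 10, 9 are among the 16576 genes listed for the cultures, and all 9 passed the filter on low values. Cxcl12 was not analysed here. The genes were picked with the difference between DkkMo-treated and scrMo-treated cultures in log phase already known. That contrast, and every other contrast that uses its libraries, is therefore given as a description with no test. Tests were run between the cultures under nutritional stress, and between nutritional stress and log phase in the cultures without morpholino. Earlier results of these data were known when the genes were picked, so these tests may not be independent of the choice.

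MOSJ-Dkk-1 is a mouse osteochondral sarcoma cell line that carries a red fluorescent label and secretes human Dkk-1 from a constitutive cytomegalovirus promoter, and all 18 cultures are of this line. Log-phase cultures were grown for 6 days with regular medium changes. Cultures under nutritional stress were held at confluence for 48 h and had no medium change for 4 days. In each condition, 3 libraries came from cultures with 5 µM DkkMo (a cell-penetrating morpholino against Dkk-1), 3 from cultures with 5 µM scrMo (its control morpholino) and 3 from cultures without morpholino (NT), whose labels give the treatment as vehicle. The study calls scrMo scrambled and describes its design as having 5 mismatches. The concentration is that of the labels, and a figure legend of the study gives a different one. The target of DkkMo is a human transcript, which reads counted on mouse genes do not measure, so its level was not analysed here. The labels do not say whether the libraries of a group came from separate cultures, so p values measure only the spread between these libraries. Of the NT libraries under nutritional stress, replicates 2 and 3 carry the same number in their titles.

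Chemokines are small secreted proteins that bind G protein-coupled receptors on leukocytes and steer their migration along a gradient. CXC ligands with a Glu-Leu-Arg motif before the first cysteine, such as Cxcl1, Cxcl5 and the Ppbp product, act through Cxcr2 and draw neutrophils. The CC ligands Ccl2 and Ccl7 draw monocytes through Ccr2, whereas Ccl9 and Ccl5 act through Ccr1. Cxcl10 is an interferon-inducible ligand of Cxcr3 on T cells and natural killer cells, and Cx3cl1 (fractalkine) is a membrane-bound adhesion ligand that proteases release as a soluble form. In many stromal and tumour cells the transcription of these genes is known to depend on NF-kB, AP-1 and interferon-regulated factors.

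Positions are from GENCODE for GRCm38. On chromosome 5, Cxcl5 (90759360-90761624, plus strand) lies 6.89 kb before Ppbp (90768518-90770063, plus strand), and Cxcl1 (90891241-90893115, plus strand) follows 121 kb later. Cxcl10 (92346638-92348889, minus strand) is on the same chromosome, inside the span of Art3 on the opposite strand. On chromosome 11, Ccl2 (82035571-82037453, plus strand) and Ccl7 (82045712-82047525, plus strand) are 8.26 kb apart. Ccl2 overlaps the predicted gene Gm17268 on the opposite strand. On the same chromosome, Ccl5 (83525778-83530518, minus strand) and Ccl9 (83572919-83578636, minus strand) are 42.4 kb apart. Cx3cl1 (94772009-94782427, plus strand) is on chromosome 8. The sources used here do not state whether counting used the strand, so reads of Cxcl10 and Ccl2 may include reads of the overlapping genes.

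RefSeq promoter sequences for GRCm38.p6 were given for 6 of the 10 genes. The 250 bases before the start site are shown for Cxcl1 (chr5:90890995-90891244, plus strand), Cxcl10 (chr5:92348890-92349139, minus strand) and Ppbp (chr5:90768268-90768517, plus strand), because on the deposited log2 scale Cxcl1 fell most and Ppbp least under nutritional stress, and Cxcl10 was called with both morpholinos. Each is written 5′ to 3′ on the strand of the gene, and capitals mark every match, on either strand, to the NF-kB consensus, the core of the interferon-stimulated response element, the AP-1 site TGANTCA or the TATA box TATAAA.
Cxcl1: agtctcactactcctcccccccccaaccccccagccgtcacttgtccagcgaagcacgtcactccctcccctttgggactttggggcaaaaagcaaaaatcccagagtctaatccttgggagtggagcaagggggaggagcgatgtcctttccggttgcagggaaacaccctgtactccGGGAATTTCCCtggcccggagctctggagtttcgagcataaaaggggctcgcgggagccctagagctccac
Cxcl10: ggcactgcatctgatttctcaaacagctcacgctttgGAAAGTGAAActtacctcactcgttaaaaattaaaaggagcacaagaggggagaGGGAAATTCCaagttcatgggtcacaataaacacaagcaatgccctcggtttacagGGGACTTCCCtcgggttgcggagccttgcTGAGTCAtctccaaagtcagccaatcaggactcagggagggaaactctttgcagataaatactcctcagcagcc
Ppbp: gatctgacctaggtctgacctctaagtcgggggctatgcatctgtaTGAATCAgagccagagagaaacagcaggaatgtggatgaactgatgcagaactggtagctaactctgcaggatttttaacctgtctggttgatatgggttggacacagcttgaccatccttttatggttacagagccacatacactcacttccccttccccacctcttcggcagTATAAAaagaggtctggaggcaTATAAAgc
In Cxcl1 the capitals are a pair of NF-kB matches on opposite strands that overlap and differ by 1 base in position. In Cxcl10 they are, in order, the interferon-stimulated response element core, an NF-kB match, a second NF-kB match and an AP-1 match. In Ppbp they are an AP-1 match and 2 TATA boxes. Among 32851 promoter windows of 250 bases, 3.9% held the NF-kB consensus, 2.98% the interferon-stimulated response element core, 6.75% the AP-1 site and 12.4% the TATA box. Of the windows not shown, that of Ccl9 held an NF-kB match, an AP-1 match and 3 TATA boxes, that of Cx3cl1 held 1 TATA box, and that of Cxcl12 held no match. A match is a description of the letters and says nothing about binding. The promoters of Cxcl5, Ccl2, Ccl7 and Ccl5 are not shown.

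Each culture had between 25.9 M and 44.8 M reads on listed genes (M, 1e6). A normalized count is the number of reads on a gene divided by the size factor of its library, and tests used the deposited log2 variance-stabilised values, where 7.2 stands for no reads. This scale compresses differences between low values, so folds of normalized counts are given beside it. Of the markers of the osteoblast and chondroblast lineage, 9 of 12 were listed, with summed normalized counts from 70471 to 283922 per library. Of the leukocyte markers, 5 of 15 were listed, and their sum was 1213 to 2165 in log phase and 2239 to 2556 under nutritional stress. The pan-leukocyte marker Ptprc had group means from 4.89 to 15.5. Of the platelet and megakaryocyte markers, 3 of 6 were listed, with sums from 730 to 1252. Of the markers of endothelium, skeletal muscle and red cells, 1 of 5, 1 of 4 and 1 of 3 were listed.

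Among the measured chemokine ligand genes, Ccl2, Ccl7 and Cxcl1 had the highest RNA levels in log-phase NT cultures. Ligand genes that were not listed could not be ranked. In log-phase NT cultures, the normalized count per kilobase of exon was 12262 ± 1038 (SD, n = 3) for Ccl2, 10837 ± 713 for Ccl7 and 8717 ± 1020 for Cxcl1. The next was Cxcl10 at 619 ± 89.7 per kilobase, followed by Cxcl5 at 467 ± 80.5, Cx3cl1 at 460 ± 17 and Ccl5 at 429 ± 67.8. Ccl2 and Ccl7 overlapped between libraries and Cxcl1 lay below both, and Cxcl5, Cx3cl1 and Ccl5 overlapped one another below Cxcl10. Ccl9, at 99.6 ± 14.9 per kilobase, and Ppbp, at 67.1 ± 8.25, were the lowest, in this order without overlap. Under nutritional stress without morpholino the order was different. Ccl7 led at 3397 ± 143 per kilobase, ahead of Ccl2 at 974 ± 90.9 and Cxcl1 at 234 ± 21.2. Ppbp, Cxcl5 and Ccl9 were near the bottom of the scale, at 5.29 ± 5.31, 4.68 ± 4.1 and 2.17 ± 0.833 per kilobase, and these 3 could not be ordered beyond their spread.

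**Figure D1:**
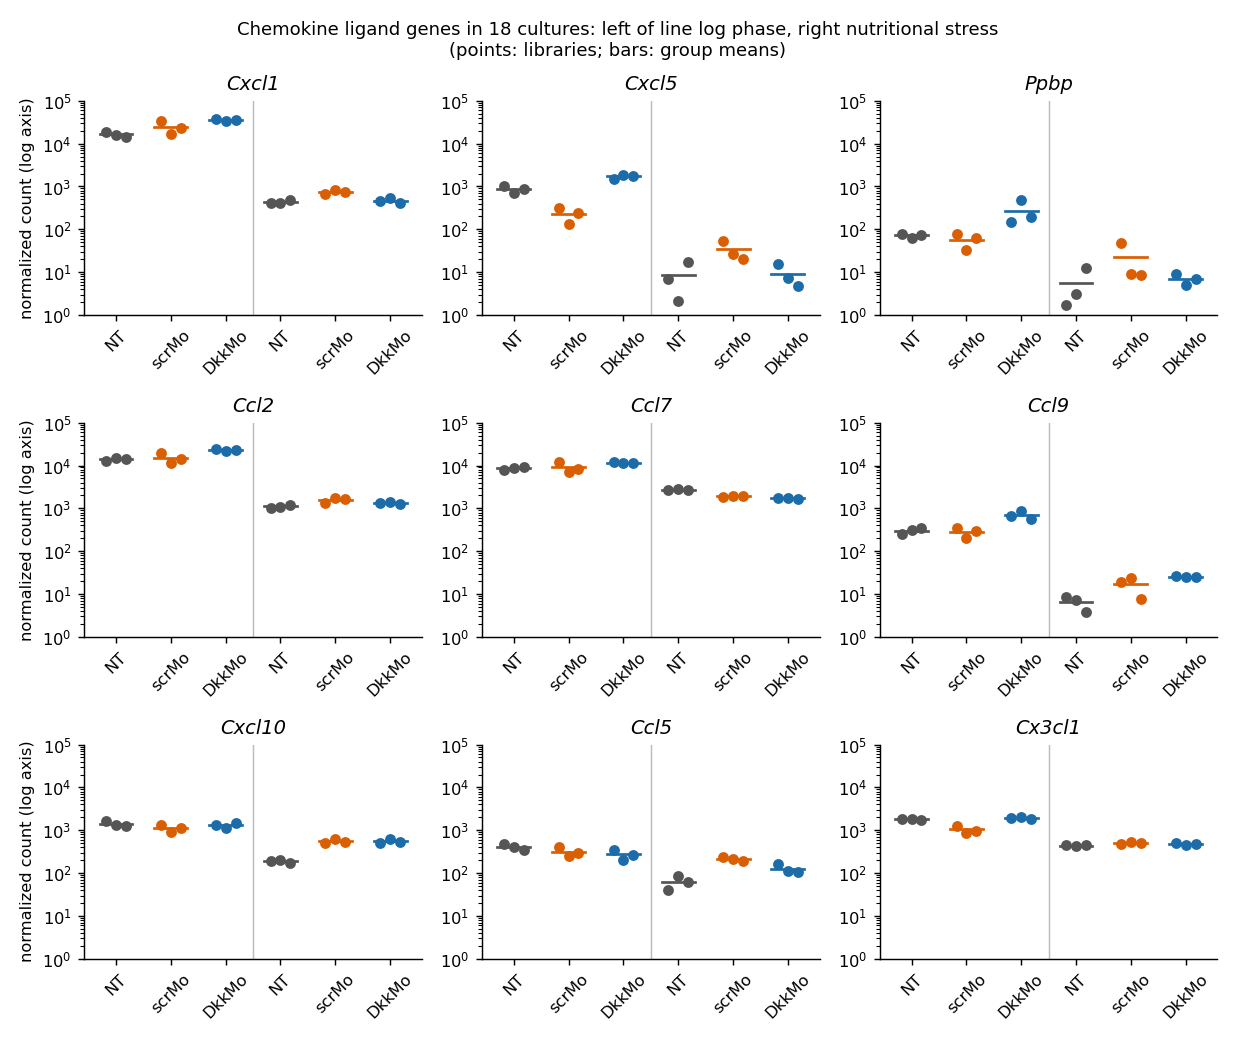
Normalized counts (log axis) of the 9 measured chemokine ligand genes in each of the 18 cultures, with points for libraries and bars for group means, log phase left of the line and nutritional stress right of it. All 9 genes sit lower under nutritional stress in the NT cultures, from 16344 to 438 on average for Cxcl1 and from 870 to 8.71 for Cxcl5.

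The first comparison set confluent cultures without fresh medium against log-phase cultures, both without morpholino. Cell density and medium supply differed together, and time in culture may differ as well, so their effects cannot be told apart. Every one of the 9 measured genes fell, and all 9 were called lower, against 9.90% of all 16562 genes tested. A gene counts as called when its adjusted p is under 0.05 and it changes more than 1.5-fold on the deposited log2 scale. In all 9 the 3 stressed cultures lay below the 3 log-phase cultures without overlap, as was so for 38.8% of all genes. The median log2 difference of the 9 was -1.62, and that of all genes tested was -0.01. The genes were picked as ligands made by these cells with earlier results known, so the choice may have favoured genes high in log phase. Cxcl5, Ppbp and Ccl9 had means of only 8.71, 5.73 and 6.6 normalized counts under nutritional stress. The count of 9 is therefore a description and not independent support. In bulk RNA, fewer cells that express a gene and less RNA of it per cell cannot be told apart.

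Of the neutrophil ligands, Cxcl1 had normalized counts of 18377, 16076 and 14579 in the log-phase NT cultures and 418, 412 and 484 under nutritional stress. Its log2 difference of -4.56 (SE 0.16, adjusted p = 2.45e-14 from limma) was the second largest fall of all genes tested, and its mean normalized count was 37.3-fold lower. Cxcl5 had normalized counts of 1018, 718 and 874 in log phase and 6.99, 2.07 and 17.1 under nutritional stress. The latter correspond to 8, 2 and 18 reads. The log2 difference of Cxcl5 was -2.63 (SE 0.13, adjusted p = 3.24e-12) and the fold between mean normalized counts was 99.9, so few reads remained. Ppbp, the gene next to Cxcl5, went from 79.9, 62.7 and 75.3 to 1.75, 3.11 and 12.3 normalized counts. Its log2 difference was -0.73 (SE 0.17, adjusted p = 8.50e-04), the smallest of the 9 on this compressed scale. Its mean normalized count was 12.7-fold lower, a larger fold than for Ccl7 (3.19), Cx3cl1 (4.1), Ccl5 (6.58) and Cxcl10 (7.39). With each library centred on its median, the difference of Ppbp was -0.57 and fell short of the 1.5-fold threshold.

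Among the CC ligands, Ccl2 had normalized counts of 12624, 14883 and 14354 in log phase and 1041, 1056 and 1227 under nutritional stress. Its log2 difference was -3.36 (SE 0.13, adjusted p = 9.14e-14), the tenth largest fall of all genes tested. Its neighbour Ccl7 fell less. The log-phase normalized counts of Ccl7 were 8072, 8765 and 9204, and those under nutritional stress were 2656, 2854 and 2653. The log2 difference of Ccl7 was -1.58 (SE 0.12, adjusted p = 5.17e-10), a 3.19-fold change of the mean normalized count against 12.6-fold for Ccl2. Ccl9 went from 252, 319 and 339 to 8.73, 7.26 and 3.79 normalized counts, with a log2 difference of -1.62 (SE 0.11, adjusted p = 9.93e-11) and a 46-fold lower mean. Ccl5 went from 478, 410 and 348 to 40.2, 86.1 and 61.6 normalized counts, with a log2 difference of -1.28 (SE 0.12, adjusted p = 1.34e-08).

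The T cell ligand Cxcl10 had normalized counts of 1626, 1299 and 1256 in log phase and 191, 200 and 175 under nutritional stress, a log2 difference of -1.95 (SE 0.11, adjusted p = 1.12e-11). Art3, which overlaps it, was listed with 147 to 173 normalized counts in log phase and 14.2 to 22.8 under nutritional stress, and the part of overlapping reads in either value was not tested. Cx3cl1 went from 1825, 1861 and 1732 to 444, 425 and 451, a log2 difference of -1.57 (SE 0.08, adjusted p = 1.89e-12) with little spread in either group. The summed leukocyte markers were higher under nutritional stress, from 1213 to 1341 in the log-phase NT cultures to 2239 to 2556 under nutritional stress, carried by the macrophage genes Cd68 (400 to 1425 on average, called higher) and Csf1r (445 to 740). The other 3 listed markers had lower means, Cd14 at 275 and 142, Lyz2 at 126 and 98.1 and Ptprc at 15.5 and 4.89. Their part in these results was not tested.

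**Figure D2:**
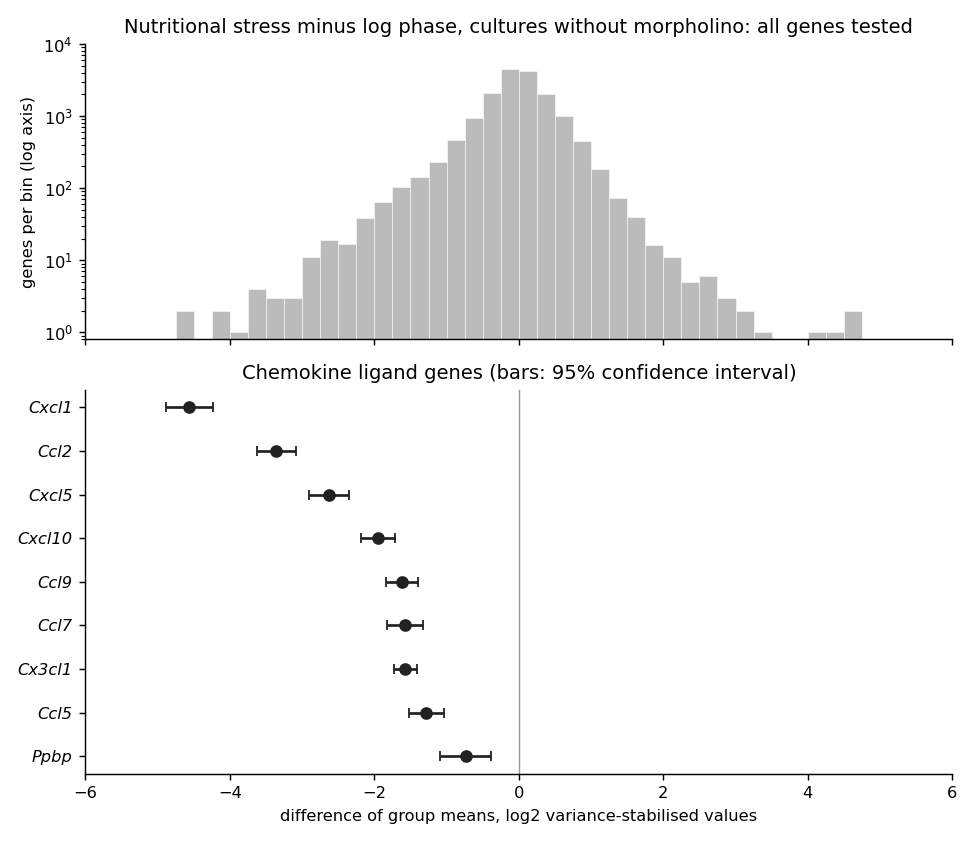
Top: number of genes (log axis) per bin of the difference between nutritional stress and log phase in NT cultures, for all 16562 genes tested. Bottom: the same difference for the 9 chemokine ligand genes with 95% confidence intervals from limma, all below 0, from -0.73 for Ppbp to -4.56 for Cxcl1.

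The cultures with a morpholino are described without a test, because their log-phase libraries were those on which the genes were picked. With DkkMo, all 9 genes were lower under nutritional stress than in log phase without overlap (35.5% of all genes), with a median log2 difference of -2.10. With scrMo, 8 of 9 were lower without overlap (32.8% of all genes), with a median of -1.01. The exception to the non-overlap was Ppbp, whose library 1 with scrMo under nutritional stress had 48.4 normalized counts, above the lowest log-phase library at 32.6. The difference of Cxcl1 was -4.52 with scrMo and -5.61 with DkkMo. Cxcl10 differed by -0.76 with scrMo and -0.95 with DkkMo, beside -1.95 in the NT cultures. Ccl5 differed by -0.30 and -0.54, beside -1.28. Whether these differences depend on the morpholino was not tested.

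The next comparison asked whether DkkMo changed chemokine transcripts of starved cells relative to its control. In limma, 0 of 9 genes were called between DkkMo-treated and scrMo-treated cultures under nutritional stress, against 1.00% of all genes. A higher mean with DkkMo was seen for 1 of 9 genes, Ccl9, and for 50.5% of all genes, and the median log2 difference was -0.20. At an unadjusted p below 0.05 there were 3 genes (32.6% of all genes), and limma voom on recovered reads called 2 lower, Cxcl1 and Ccl5 (5.54% of all genes in either direction). By the adjusted p alone 2 genes passed, as did 20.9% of all genes. Cxcl5, Ccl7, Cxcl1 and Ccl5 lay lower without overlap (22.7% of all genes) and Ccl9 higher (22.2%). Cxcl1 had normalized counts of 461, 532 and 410 with DkkMo and 657, 842 and 749 with scrMo, without overlap. Its log2 difference of -0.48 (SE 0.16, 95% confidence interval -0.81 to -0.15, adjusted p = 0.0351) passed the test but not the fold threshold on this compressed scale. The mean normalized count of Cxcl1 was 1.6-fold lower with DkkMo. Ccl5 had 159, 112 and 106 with DkkMo and 238, 212 and 191 with scrMo, again without overlap. Its log2 difference was -0.36 (SE 0.12, 95% confidence interval -0.61 to -0.11, adjusted p = 0.0351), and its mean normalized count was 1.7-fold lower. Cxcl5 had 15, 7 and 4 reads with DkkMo and 43, 29 and 21 with scrMo. Its difference of -0.33 (SE 0.13, adjusted p = 0.0957) did not pass, and its mean normalized count was 3.76-fold lower with DkkMo. For Cxcl10 the difference was -0.01, with a 95% confidence interval from -0.24 to 0.22, and for Cx3cl1 it was -0.07, from -0.23 to 0.09. 

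Both morpholinos were next compared with NT under nutritional stress. These comparisons share the NT libraries with each other, and their morpholino libraries with the comparison above. With scrMo, 2 of 9 genes were called higher than in NT (1.90% of all genes were) and 0 lower (2.54% of all genes were), out of 4.43% of all genes called in either direction. With DkkMo, 1 gene was called higher (1.12% of all genes) and 1 lower (1.54% of all genes), out of 2.66% in either direction. By the adjusted p alone, 6 of 9 genes passed with scrMo (46.8% of all genes) and 4 of 9 with DkkMo (41.7%). Without overlap, 6 genes lay above NT with scrMo (30.6%) and 1 below (32.9%), and with DkkMo 4 lay above (27.6%) and 1 below (31.8%).

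Cxcl10 was the gene called higher with either morpholino. Its normalized counts were 191, 200 and 175 in NT, 493, 639 and 538 with scrMo and 496, 613 and 537 with DkkMo, so the NT cultures lay below both other groups. The log2 difference was 0.93 (SE 0.11, adjusted p = 1.67e-06) with scrMo and 0.91 (SE 0.11, adjusted p = 3.33e-06) with DkkMo. Art3 moved with it, at 14.2 to 22.8 in NT, 69 to 77.9 with scrMo and 49.7 to 78 with DkkMo. Ccl5 had 40.2, 86.1 and 61.6 normalized counts in NT against 191 to 238 with scrMo, a log2 difference of 0.73 (SE 0.12, adjusted p = 5.41e-05). With DkkMo, at 106 to 159, the difference of Ccl5 was 0.37 (SE 0.12, adjusted p = 0.0167), which missed the fold threshold on the log2 scale. On normalized counts the ratio of its means was 2.01.

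With each morpholino under nutritional stress, the neighbours Ccl2 and Ccl7 had differences from NT of opposite sign, and limma called Ccl2 with neither. Ccl7 had 2656, 2854 and 2653 normalized counts in NT, 1870, 1990 and 1991 with scrMo and 1786, 1709 and 1632 with DkkMo, and the 3 groups did not overlap. It was called lower with DkkMo, at -0.59 (SE 0.12, adjusted p = 4.55e-04), a difference close to the fold threshold. The call was lost without DkkMo library 3 (-0.57), without NT library 2 (-0.56) and after quantile normalization (-0.47). With scrMo the difference of Ccl7 was -0.43 (SE 0.12, adjusted p = 0.00512). Ccl2 had 1041, 1056 and 1227 in NT, 1316, 1782 and 1681 with scrMo and 1366, 1426 and 1246 with DkkMo. Its difference was 0.43 (SE 0.13, adjusted p = 0.0109) with scrMo, which missed the fold threshold, and 0.23 (adjusted p = 0.163) with DkkMo.

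Of the neutrophil ligands, Cxcl1 was higher with scrMo than in NT by 0.54 (SE 0.16, adjusted p = 0.00837), and Cxcl5 by 0.35 (SE 0.13, adjusted p = 0.0419). Neither reached the fold threshold on the compressed scale. On normalized counts the ratio of means was 1.71 for Cxcl1 and 3.89 for Cxcl5, and limma voom called both. With DkkMo the difference from NT was 0.06 (95% confidence interval -0.27 to 0.39) for Cxcl1 and 0.02 (-0.26 to 0.30) for Cxcl5. Ppbp did not pass the test in either comparison, and its scrMo library 1, at 48.4 normalized counts, stood apart from 9.17 and 8.75 in the other libraries. Ccl9 had 26.4, 25.5 and 24.4 normalized counts with DkkMo, above all NT cultures at 3.79 to 8.73, a difference of 0.30 (SE 0.11, adjusted p = 0.0316) that limma voom called. Cx3cl1 differed by 0.14 (adjusted p = 0.159) with scrMo and 0.07 (adjusted p = 0.511) with DkkMo.

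**Figure D3:**
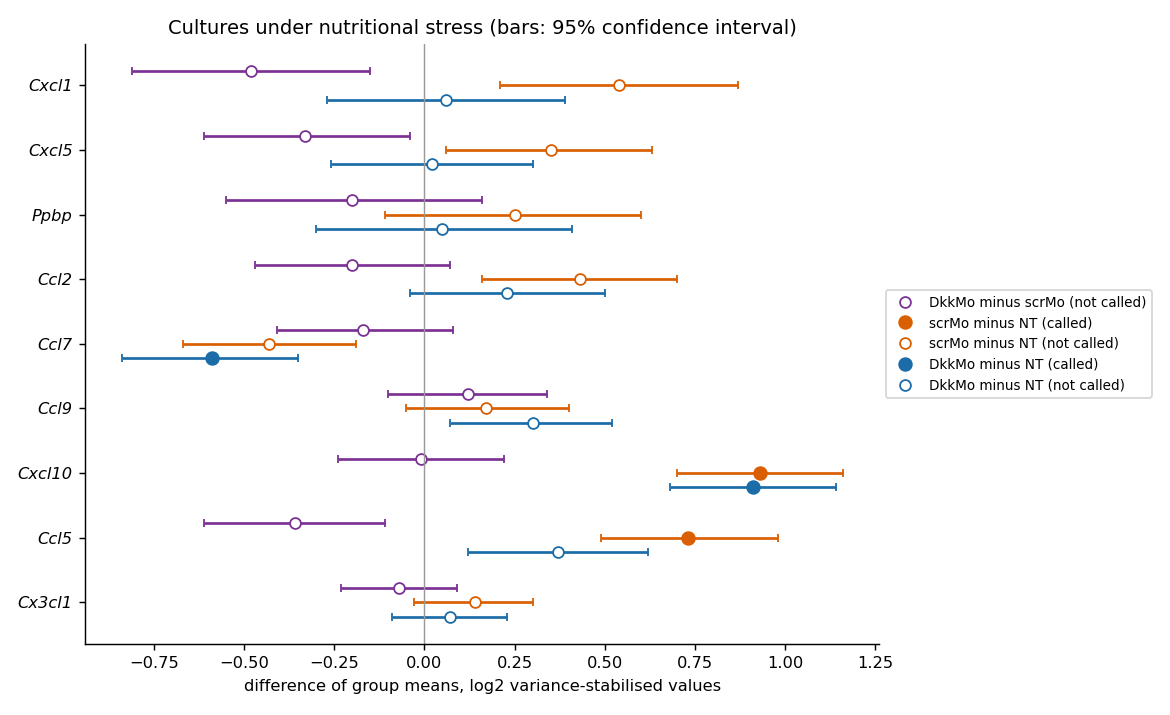
Log2 differences of the 9 genes between the 3 groups under nutritional stress, with 95% confidence intervals from limma and filled points for called genes. Cxcl10 is called higher than in NT with scrMo (0.93) and with DkkMo (0.91), Ccl5 with scrMo (0.73), and Ccl7 is called lower with DkkMo (-0.59).

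In log phase the values are those on which the genes were picked, or share libraries with them, and support nothing by themselves. Against scrMo, 8 of 9 genes had a higher mean with DkkMo (51.5% of all genes did) and 5 of 9 lay above without overlap (15.6%). Against NT the picture was different for several genes. With DkkMo, 7 of 9 means were higher than in NT (52.2% of all genes) and 6 of 9 without overlap (12.6%). Cxcl1 had 37441, 33269 and 35702 normalized counts with DkkMo, 33296, 16469 and 22589 with scrMo and 18377, 16076 and 14579 in NT. Its log2 difference from NT was 1.11 with DkkMo and 0.50 with scrMo, and the scrMo cultures overlapped the NT cultures. Cxcl5 had 1468, 1893 and 1795 with DkkMo, 311, 134 and 246 with scrMo and 718 to 1018 in NT. The scrMo cultures thus lay below NT by 1.28 on the log2 scale and the DkkMo cultures above it by 0.81. Cx3cl1 overlapped between DkkMo and NT cultures, at 1815 to 2086 and 1732 to 1861, and was lower with scrMo, at 1271, 870 and 985. Cxcl5 and Cx3cl1 were the 2 of 9 genes with scrMo cultures below NT without overlap (20.0% of all genes).

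For Ppbp the log-phase DkkMo mean of 275 rested on library 2, at 485, beside 151 and 189 in the others, and NT cultures had 62.7 to 79.9. Ccl9 had 565 to 853 with DkkMo, 205 to 357 with scrMo and 252 to 339 in NT. Ccl2 and Ccl7 were higher with DkkMo than in NT by 0.70 and 0.41 without overlap. Cxcl10 and Ccl5 were not: they differed from NT by -0.08 and -0.37 with DkkMo and by -0.26 and -0.24 with scrMo, with overlap in each case.

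By the median SD, the scrMo cultures were the most variable in log phase for these genes. Library 1 was the highest and library 2 the lowest of the 3 for all 9 genes, whereas over all genes library 1 was highest for 41.2% and library 2 lowest for 27.4%. The median SD of the 9 genes was 0.24 in this group, beside 0.09 for all genes. It was 0.17 with DkkMo, beside 0.09 for all genes, and 0.13 in NT, beside 0.05. With scrMo, Cxcl1 with an SD of 0.50, Ccl7 with 0.39 and Ccl2 with 0.38 varied most. Ppbp varied more with DkkMo (SD 0.51) than with scrMo (0.18). For Ccl7, library 1 at 11978 reached the DkkMo cultures at 11455 to 11959, and library 2 at 6953 was below all NT cultures. Without scrMo library 1, the scrMo mean was above the NT mean in 1 of 9 genes, and with it in 3 of 9 (49.6% of all genes).

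**Figure D4:**
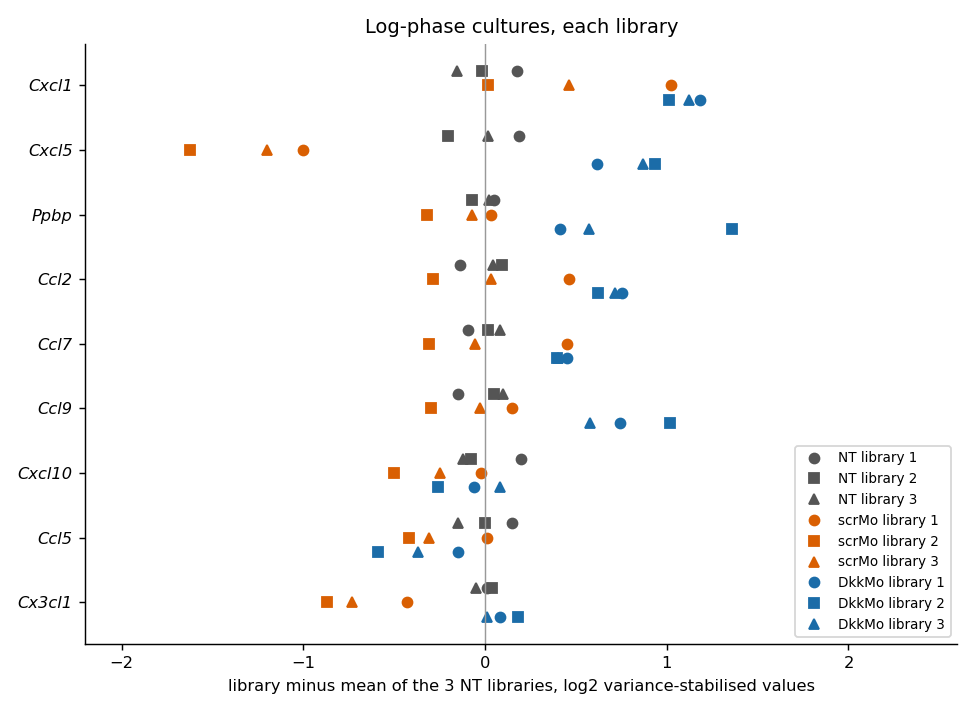
Each log-phase library minus the mean of the 3 NT libraries, on the log2 variance-stabilised scale, with colours for groups and symbols for library numbers. The scrMo libraries order as 1, 3, 2 from high to low in all 9 genes, and the DkkMo libraries lie above all NT libraries in 6 of 9.

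The genes varied together across the 18 cultures, which fall into log phase and nutritional stress. Pearson correlations of the deposited values over the 36 pairs had a median of 0.899 and ranged from 0.564 (Ppbp with Ccl5) to 0.997 (Ccl2 with Cxcl1). Within the 9 log-phase cultures the median was 0.611 and within the 9 stressed cultures 0.478, and these cultures still differ by morpholino. Ccl2 and Ccl7 correlated at 0.96 in log phase and at -0.567 under nutritional stress. Ccl7 and Cxcl10 were at -0.92 under nutritional stress. With the group means removed, the same pairs were at 0.863 and 0.513 over the 18 cultures. These values include the log-phase cultures, where the SD of Ccl7 with scrMo was 0.39, beside 0.05 with scrMo under nutritional stress. They therefore cannot show whether the negative values follow the group means, which was not tested. Of non-member genes, those most like Cxcl5 over the 18 cultures were Igfbp7 (r = 0.984), Cbr2 (0.984) and Acta2 (0.981). Those most like Ccl2 were Hrob (0.995), Gtse1 (0.995) and Angptl4 (0.993). Those most like Cx3cl1 were Pcolce (0.995), C1ra (0.995) and Psme2 (0.994), and those most like Cxcl10 were Art3 (0.986), Ganab (0.983) and Cryz (0.977).

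**Figure D5:**
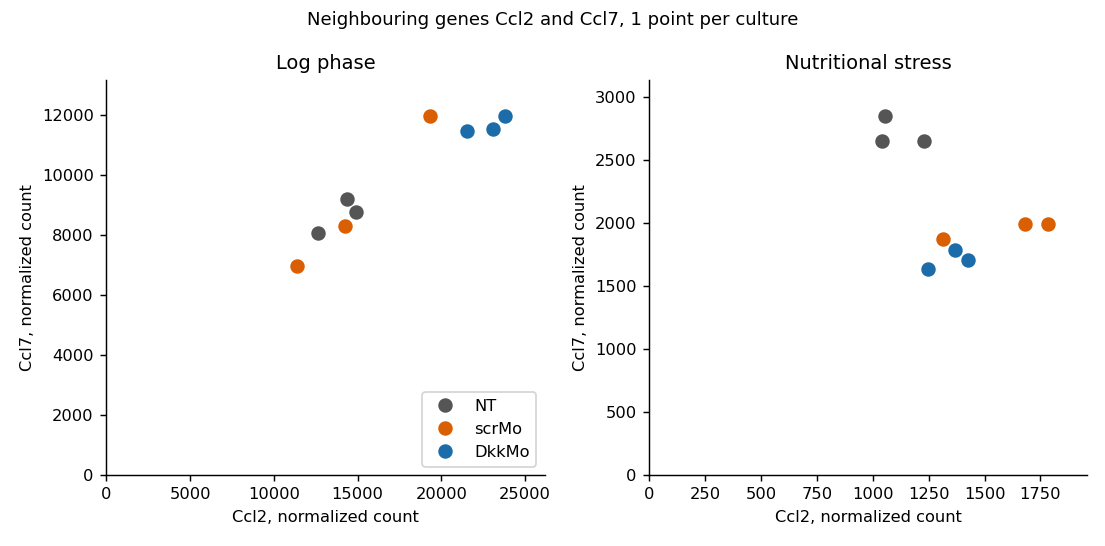
Normalized counts of the neighbouring genes Ccl2 and Ccl7 with 1 point per culture, log phase left and nutritional stress right, on axes of different range. In log phase the cultures lie along a rising line (r = 0.96), and under nutritional stress the NT cultures have the highest Ccl7 and the lowest Ccl2 (r = -0.567).

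Genes of the interferon and NF-kB pathways, factors and targets alike, were read from lists. Between nutritional stress and log phase in NT cultures, 8 of 13 listed interferon genes were called lower (9.90% of all genes) and 0 higher (8.22%), with a median of -1.31. They included Irf7 (-2.88), Isg15 (-2.75), Ifit1 (-1.83), Irf1 (-1.65), Ddx58 (-1.36), Stat2 (-1.31) and Ifih1 (-0.86). Irf7, a master regulator of interferon genes, went from 3466 ± 75.7 to 259 ± 13.3 normalized counts (SD, n = 3). Of the NF-kB list, 6 of 19 were called lower (9.90% of all genes) and 2 higher (8.22%), with a median of 0.11. The genes called lower were Vcam1 (-2.03), Csf1 (-1.83), Nfkbiz (-1.40), Nfkbia (-1.23), Nfkbie (-0.87) and Il1r1 (-0.83). The kinase subunit genes Ikbkg (0.98) and Chuk (0.70) were called higher. Other genes of this list passed the adjusted p without a call. Of these, Rela (0.53), Ikbkb (0.52), Nfkbib (0.48), Rel (0.42), Tnfaip3 (0.41) and Il6 (0.24) were higher, and Nfkb1 (-0.42) and Nfkb2 (-0.32) lower.

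Under nutritional stress, Irf1 (0.61) and Stat2 (0.73) were the 2 of 13 interferon genes called higher with scrMo than in NT (1.90% of all genes), and Ifit1 (0.80) was the 1 called with DkkMo (1.12%). Between DkkMo and scrMo, limma called 0 of 13, with 7 at an unadjusted p below 0.05 (32.6% of all genes) and 1 called lower by limma voom (5.54% in either direction). Of the NF-kB list, Csf1, which encodes the macrophage growth factor, was higher than in NT by 1.53 with scrMo and by 0.64 with DkkMo, and differed by -0.88 between DkkMo and scrMo, all called. Its normalized counts were 7245 ± 524 in NT, 21435 ± 1986 with scrMo and 11445 ± 83.1 with DkkMo. Nfkb1, Relb, Nfkbib and Il1r1 were called lower with scrMo (4 of 19, against 2.54% of all genes), and Relb and Tnfaip3 with DkkMo (2 of 19, against 1.54%), relative to NT.

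Of 27 other chemokine ligand genes, 6 were listed, at sums of 275 to 358 normalized counts per library in log phase and 375 to 574 under nutritional stress. Ccl28 was the 1 of 6 called lower under nutritional stress in NT (9.90% of all genes), from 97.9 ± 4.28 to 19.7 ± 2.76 normalized counts. The 6 were called neither higher nor lower in the 3 morpholino comparisons under nutritional stress, in which 4 between DkkMo and scrMo, 2 between scrMo and NT and 4 between DkkMo and NT had an unadjusted p below 0.05 in limma, and limma voom called 2, 2 and 3. In the same order, 32.6%, 53.0% and 49.6% of all genes had such a p, and limma voom called 5.54%, 17.8% and 13.9%. Of 23 receptor genes, 6 were listed. The signalling receptors of the measured ligands were not analysed in the cultures. The decoy receptor Ackr3, which binds Cxcl12, was the 1 called, lower with DkkMo than in NT under nutritional stress (1.54% of all genes). It had 767 ± 39.1 normalized counts with DkkMo against 1322 ± 23.8 in NT (-0.63). With scrMo, at 819 ± 107, its difference from NT was -0.56 (adjusted p = 2.84e-04), just under the fold threshold, and between DkkMo and scrMo it was -0.07 (adjusted p = 0.702). Of the proteases and binders of chemokines, 7 of 10 were called lower under nutritional stress in NT (9.90% of all genes). These included Adam10 (-0.82) and Adam17 (-0.67), the sheddases of Cx3cl1, and Mmp2 (-1.79), which cleaves Ccl7, besides Mmp9, Mmp13, Mmp14 and Sdc4. Ext1, a heparan sulfate polymerase, was the 1 of 10 called lower with scrMo than in NT under nutritional stress (-0.76, against 2.54% of all genes). It was also the 1 of 10 called lower with DkkMo than in NT (-0.62, against 1.54%). Between DkkMo and scrMo, limma called 0 of 10 (1.00% of all genes), with 6 at an unadjusted p below 0.05 (32.6%), and limma voom called 2 (5.54%).

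Tumours of the same cells in NU/J nude mice, fixed in formaldehyde, were sequenced in 4 groups of 4: NT, DRB (doxorubicin), DkkMo and the combination of the latter. The 10 ligands were not analysed in them. Tumours of a group varied widely, and the summed leukocyte markers of the NT tumours ranged from 8396 to 634640 normalized counts. Size factors of the tumours did not follow their reads. NT tumour 2 had 77.7 M reads and a size factor of 3.24, and NT tumour 4 had 125 M and 0.853. Of 23 receptor genes, 8 were listed and 1 was called between the combination and DRB. This was Cx3cr1, which binds Cx3cl1 on macrophages and related cells and which ranged from 10.95 to 15.14 with DRB and from 8.59 to 10.32 with the combination on the log2 scale, without overlap. Its difference of -3.32 (SE 0.95, adjusted p = 0.0395 from limma) was called, as were 6.92% of all genes lower. The call was lost in 7 of the 8 fits that left out a tumour, with adjusted p from 0.0551 to 0.141, and with quantile normalization, log2(normalized count + 1) or median centring (adjusted p = 0.0797, 0.0726 and 0.112). Between DkkMo and NT, limma called 0 of 12595 genes, 1554 of which had an unadjusted p below 0.05, and Cx3cr1 differed by -3.43 (SE 0.95, adjusted p = 0.273). Of the leukocyte markers, 8 of 15 were listed, with summed normalized counts of 22553 to 328584 with DRB and 8103 to 11160 with the combination. Laptm5 (-7.21) and Ptprc (-3.98) among them were called lower. The others were not called. Of these, Nkg7 (-3.94), Tyrobp (-3.31), Adgre1 (-1.82) and Csf1r (-0.38) were lower, and S100a9 (0.26) and Itgam (0.15) higher. Reads per tumour were 85.3 M to 106 M with DRB and 28.3 M to 41.1 M with the combination. Their part in the result was not tested.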

How the data were processed

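RNA from 18 cultures of MOSJ-Dkk-1 cells and 16 tumours was sequenced. Per the labels and the study's methods, the authors aligned reads to GRCm38 with HISAT2 2.1.0, counted them per gene with SAMtools 1.9 and featureCounts (Subread 2.0.0), and deposited log2 values from the variance-stabilising transformation of DESeq2, 1 table for cultures and 1 for tumours. Strandedness, and the rule by which genes were listed, are not given in the sources used here. The transformation was reversed in closed form, which gave whole reads for 100% of values under 1000 reads in both tables, within 0.01 read. Depth was 25.9 M to 44.8 M reads per culture, and values of a few reads carry large counting error. Replicates of a group differed beyond sampling noise in every pair. Of 16576 genes listed for the cultures, 14 rows that spanned more than 6 units within a group were set aside, and 16562 were tested.

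Groups followed the labels. Deposited log2 values were compared with limma 3.58.1 in R 4.3.3, with 1 mean per group, all libraries of a table fitted together, and variances moderated by empirical Bayes along a mean-variance trend. P values were adjusted by Benjamini-Hochberg over all genes tested. Calls needed both an adjusted p under 0.05 and more than a 1.5-fold change on the log2 scale of the fit. Genes with reads in fewer than 3 cultures or 4 tumours were to be dropped, and none was. The script was tested on simulated data. The member genes and all lists were chosen with earlier results of these data known. The rule named all 10 members, genes of the lists where called, and ligands and receptors of members. It also named the 3 non-member genes most correlated with Cxcl5, Ccl2, Cxcl10 and Cx3cl1. Some uncalled genes of the lists are named beside these. Motifs were searched in RefSeq promoters for GRCm38.p6. Figures were made with Python 3.11.15 and Matplotlib 3.10.9. Same-numbered DkkMo and scrMo cultures under nutritional stress were checked for pairing.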

Additional observations from a re-analysis of the deposited data

Results flagged for a closer look

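Some genes had differences of opposite sign in the 2 culture conditions, with every culture of a group on the same side in each condition. These differences between conditions were not tested, and their log-phase values use the libraries on which the genes were picked or share libraries with them. Cxcl5 was higher with DkkMo than with scrMo in log phase by 2.08 on the log2 scale, and the difference was -0.33 under nutritional stress. Between scrMo and NT, Cxcl5 differed by -1.28 in log phase and by 0.35 under nutritional stress, where the counts rest on few reads. Cx3cl1 differed between scrMo and NT by -0.67 in log phase and by 0.14 under nutritional stress. Ccl7 differed between DkkMo and NT by 0.41 in log phase and by -0.59 under nutritional stress. In the tumours, the highest of the 4 Cxcr4 values with DkkMo, 10.81 on the log2 scale, stood apart from the rest of its group, which began at 9.31. Cxcr4 is the receptor of Cxcl12, and chance marks about 1 in 20 groups in this way.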

How the results depend on the processing

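The fall of the 9 genes between log phase and nutritional stress in NT cultures kept its direction under each alternative run. With only genes above the median gene, the 5 genes that kept a value were called lower (5 in place of 9), and with each library centred on its median Ppbp, at -0.57, was not called. Between DkkMo and scrMo under nutritional stress the count of called genes was 0, but 3 as log2(normalized count + 1), 2 with limma voom and 2 with the adjusted p alone. Over all genes, log2(normalized count + 1), limma voom and the adjusted p alone called 891, 918 and 3464 in place of 166 in this comparison. Between scrMo and NT the count was 2, but 1 with only genes above the median gene, 6 as log2(normalized count + 1), 4 with limma voom and 6 with the adjusted p alone. Between DkkMo and NT it was 2, but 1 after quantile normalization and 4 as log2(normalized count + 1), with limma voom and with the adjusted p alone. Over all genes, log2(normalized count + 1) and limma voom called 2923 and 2946 in place of 734 between scrMo and NT, and 2317 and 2305 in place of 441 between DkkMo and NT. Leaving out each library gave 1 to 2 called genes between DkkMo and NT, and 2 to 3 between scrMo and NT. The cause of these shifts was not tested. Small uncalled differences changed sign: Cxcl10 between DkkMo and scrMo was 0.02 after median centring, 0.02 after quantile normalization, and -0.07 to 0.06 when a library was left out (above 0 without DkkMo library 1 or scrMo library 2), and between DkkMo and NT Cxcl5 was -0.02 after quantile normalization and -0.06 to 0.10 when a library was left out (below 0 without NT library 2 or DkkMo library 1), and Cxcl1 was -0.01 to 0.12 (below 0 without DkkMo library 2). In log phase, the genes with a higher mean with scrMo than in NT numbered 1 to 3 when a library was left out.

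With the replicate number as a block, NT cultures left out, 0 of 9 genes were called between DkkMo and scrMo under nutritional stress. The numbers share only a number, since the deviations of same-numbered cultures correlated at -0.0586, -0.0255 and 0.00516, and the block changed no call. The alternatives planned for the ligands in tumours gave no value. Fits with stressed libraries only, or with NT and stressed libraries only, were added after seeing the data. They changed no count of called genes. All alternatives for Cx3cr1 in the tumours were also added then.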
